A study of Mus musculus with 9 samples.

Results

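The 10 genes described here are early response genes: the AP-1 genes Fos, Fosb, Jun, Junb, Jund and Atf3, together with Egr1, Ier2, Dusp1 and Nr4a1. They were chosen by symbol as immediate early genes known to respond to growth factors and to the handling of sorted cells. Each symbol matched 1 row of the raw count table, which holds 47643 genes, and all 10 passed the filter on low counts that left 18205 genes for testing.

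RNA was sequenced from long-term hematopoietic stem cells (LT-HSCs), the cells at the top of blood formation, sorted as donor-derived Lin-cKit+Sca1+Flk2-CD48-CD150+ cells from bone marrow transplant recipients, to ask how loss of class IA phosphatidylinositol 3-kinase (PI3K) changes gene expression in them. The WT group was WT;Mx1-Cre, the δKO group carried Pik3ca lox/lox, Pik3cb lox/lox and Pik3cd-/- without Cre, and the TKO group carried the same alleles with Mx1-Cre. Each group had 3 libraries. The labels list each library as 2 technical runs, and the count table has 1 column for each library. Pik3cd was deleted in the germline, so it was absent from δKO and TKO cells throughout life, whereas Pik3ca and Pik3cb were removed in TKO cells after transplantation. Cre was driven by the Mx1 promoter, which is active in all blood lineages and in other tissues, and was switched on with pIpC, a synthetic double-stranded RNA. Every group, the δKO group without Cre included, was a C57BL/6 marrow graft in lethally irradiated B6.SJL recipients aged 6 to 8 weeks that received 2 injections of 250 μg pIpC 48 hours apart and were harvested after 4 weeks. According to the methods, marrow of the 7 recipients in a group was pooled before staining. Nothing in the labels ties a library to an animal or a culture, so p-values measure the spread between these libraries. A δKO column whose number matches no label is called the unnumbered δKO library.

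Immediate early genes are transcribed within minutes of a stimulus, from growth factors and cytokines to mechanical or heat stress, without new protein synthesis. Their promoters are held ready by SRF with its ternary complex partners and by CREB, which kinases of the MAPK cascade phosphorylate, and most of the transcripts and proteins decay quickly. FOS and JUN proteins pair to form AP-1, EGR1 is a zinc-finger activator and NR4A1 an orphan nuclear receptor, and in HSCs such genes are known both as regulators of quiescence and as transcripts induced while tissue is dissociated and sorted.

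The 250 bases upstream of the RefSeq start are shown for Fosb, which had the highest level, for Fos and Dusp1, the pair with the highest Pearson correlation, and for Nr4a1, whose SD of log2 CPM within genotypes was the largest. They are taken from RefSeq on GRCm38.p6 and written 5′ to 3′ on the strand of the gene, at chr12:85473640-85473889 (plus) for Fos, chr7:19310046-19310295 (minus) for Fosb, chr17:26508473-26508722 (minus) for Dusp1 and chr15:101266596-101266845 (plus) for Nr4a1. Capitals mark the letters TGACG, which are the core of the cyclic AMP response element (CRE) bound by CREB and ATF proteins, the full element TGACGTCA, and GCGNGGGCG, which EGR proteins bind, on either strand.
Fos: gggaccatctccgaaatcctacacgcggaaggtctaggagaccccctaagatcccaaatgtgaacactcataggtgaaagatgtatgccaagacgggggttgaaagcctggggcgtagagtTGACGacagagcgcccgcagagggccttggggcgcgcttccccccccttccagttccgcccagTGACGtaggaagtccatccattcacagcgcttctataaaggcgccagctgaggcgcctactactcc
Fosb: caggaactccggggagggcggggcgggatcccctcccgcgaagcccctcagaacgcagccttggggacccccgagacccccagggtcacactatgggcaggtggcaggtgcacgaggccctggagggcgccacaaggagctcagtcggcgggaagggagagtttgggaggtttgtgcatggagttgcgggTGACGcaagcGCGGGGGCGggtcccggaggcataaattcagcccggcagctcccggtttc
Dusp1: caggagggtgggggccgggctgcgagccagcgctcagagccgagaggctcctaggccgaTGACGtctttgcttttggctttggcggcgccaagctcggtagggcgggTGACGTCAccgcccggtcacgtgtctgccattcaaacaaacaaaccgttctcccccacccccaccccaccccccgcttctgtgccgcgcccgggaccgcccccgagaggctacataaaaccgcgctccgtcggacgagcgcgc
Nr4a1: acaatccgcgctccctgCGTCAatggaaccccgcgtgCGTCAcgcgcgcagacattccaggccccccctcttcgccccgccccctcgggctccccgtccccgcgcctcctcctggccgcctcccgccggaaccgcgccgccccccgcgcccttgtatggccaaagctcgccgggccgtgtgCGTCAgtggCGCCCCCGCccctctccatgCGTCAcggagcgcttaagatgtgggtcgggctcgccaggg
Of the 10 genes, 8 had an entry in the promoter table, all except Egr1 and Ier2. The core TGACG was found upstream of 6 of these 8 genes (Fos, Fosb, Junb, Atf3, Dusp1 and Nr4a1) and upstream of 17.9% of all 27025 promoters. The full CRE, which contains the core, was found only for Dusp1 among the 8 and in 1.62% of all promoters. The EGR letters were found for Fosb and Nr4a1 and in 4.65% of all promoters. Neither the AP-1 letters TGANTCA (6.87% of all promoters) nor the SRF CArG box (1.4%) was found in these windows for any of the 8. Both strands were searched, and a match of letters shows neither binding nor activity. The RefSeq start was not always the outer end of the mm10 gene span given below. For Jund the window, chr8:70697489-70697738, ended before that span begins at 70698949, so it does not describe the bases next to that start. For Atf3, Dusp1 and Nr4a1 the window lay inside the span.

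Total counts were lowest in the unnumbered δKO library, with 31300343, and highest in WT replicate 1, with 60386097, and 18180 to 22703 genes had at least 1 count. All 12 genes of an HSC marker list were detected in every library, with summed levels of 1404 to 1725 CPM in WT, 1462 to 3159 in δKO and 2029 to 2515 in TKO, where CPM is the count of a gene relative to the library total after scaling with edgeR's TMM factors. The TKO sums thus lay above the WT sums, and their part in the results was not tested. Pik3cb, deleted in TKO cells, ranged from 25.5 to 33.9 CPM in TKO libraries, 44.6 to 63.6 in WT and 33.2 to 101 in δKO. Pik3ca, also deleted in TKO cells, was not lower there, with 52.8 to 68.0 CPM in TKO libraries beside 45.8 to 65.0 in WT and 41.3 to 88.2 in δKO. Pik3cd ranged from 98.2 to 139 CPM in WT, 38.5 to 91.2 in δKO and 71.2 to 73.5 in TKO. A count over a whole gene also takes reads from exons that a deletion leaves, and which exons were removed was not analysed here, so these counts do not check the labels. Chi-square values per gene between libraries of a genotype were 128 to 533, in amplified cDNA, so no libraries agreed within counting error. Xist ranged from 32.1 to 5340 CPM in WT, 59.5 to 6393 in δKO and 36.5 to 4162 in TKO. By their Xist levels, the libraries of a genotype do not look like parts of 1 pool of cells. The δKO replicate 1 library had the fewest genes detected, and its correlation of log2 CPM with the other δKO libraries was 0.83 and 0.80.

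All 10 genes were well expressed in each of the 9 libraries. Together they took 1.11%, 0.990% and 1.63% of all counts in WT replicates 1 to 3, 1.11%, 0.762% and 1.13% in δKO replicates 1 and 2 and the unnumbered δKO library, and 0.824%, 0.919% and 1.72% in TKO replicates 1 to 3. The shares of the genotypes overlapped. By mean CPM, Fosb ranked 9, Jun 21, Egr1 25, Dusp1 39 and Fos 60 among all genes, while Nr4a1 ranked 249, Jund 1043, Junb 1074, Ier2 1954 and Atf3 2425.

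Per kilobase of annotated exon, the order of the mean levels over 9 libraries began with Fosb (712 ± 236 CPM per kb, SD) and Jun (682 ± 174). Fos (385 ± 117), Egr1 (382 ± 125) and Dusp1 (373 ± 97.0) followed, close to one another. The lower group was Nr4a1 (106 ± 59.4), Jund (94.6 ± 83.0), Junb (66.9 ± 17.9), Ier2 (63.4 ± 20.05) and Atf3 (36.7 ± 20.5). Neighbors within these groups changed places between libraries. Fosb was above Jun in 6 of 9 libraries, Fos above Egr1 in 6, Egr1 above Dusp1 in 5, Nr4a1 above Jund in 6, Jund above Junb in 5 and Junb above Ier2 in 5, and Ier2 was above Atf3 in 8. The steps between the groups held in every library: Jun was above Fos by 1.23 to 2.61 times and Dusp1 above Nr4a1 by 2.23 to 7.72 times. Of the 1668 exon bases of Jund, 877 overlap an antisense gene, and shorter stretches of Jun, Junb and Dusp1 overlap other genes. How reads there were counted is not given. If they were set aside, these levels per kilobase, that of Jund most, are too low.

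**Figure D1:**
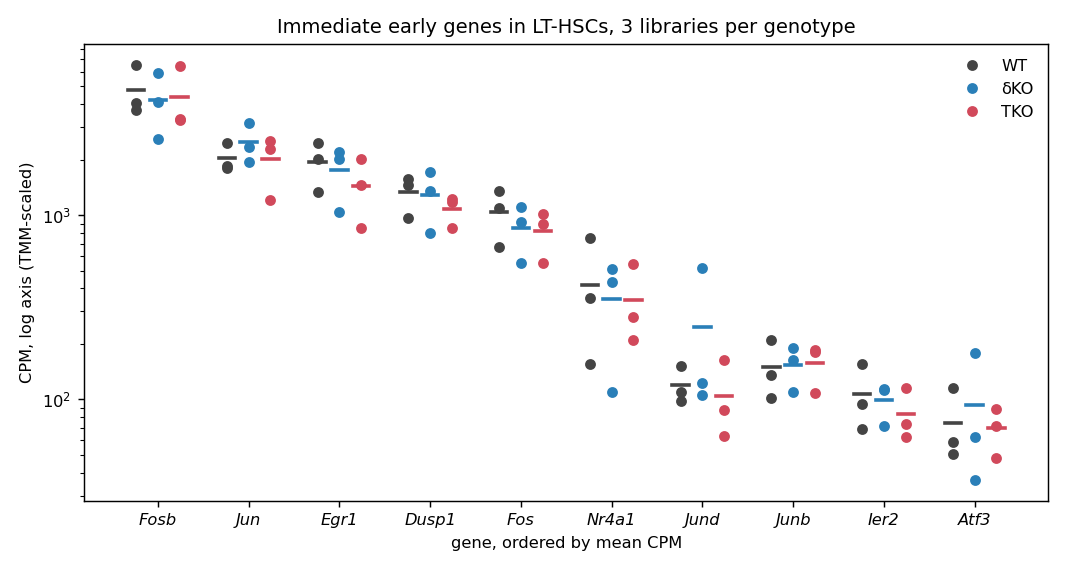
Level of each gene in CPM on a log axis, with 1 point per library, colors for WT, δKO and TKO and a short bar for the mean of 3 libraries. The points of the 3 genotypes overlap for all 10 genes, and the Jund value of 518 CPM in δKO replicate 1 lies above the other 8 Jund values.

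Fos (ENSMUSG00000021250.13, mm10 chromosome 12, 85473890 to 85477273, plus strand), the founding member of the FOS family, was at 1098, 675 and 1357 CPM in WT replicates 1 to 3. It was at 913, 547 and 1110 CPM in δKO replicates 1 and 2 and the unnumbered δKO library, and at 551, 895 and 1015 CPM in TKO replicates 1 to 3. The lowest library of each genotype was at 547 to 675 CPM and the highest at 1015 to 1357, so the genotypes overlapped almost fully. The WT, δKO and TKO means were 1043 ± 344, 857 ± 285 and 820 ± 241 CPM (SD, n = 3 each), a log2 fold change of -0.35 (SE 0.337, 95% interval -1.08 to 0.39) for TKO against WT, with an adjusted p of 1.00 in edgeR's quasi-likelihood test. Against δKO, the log2 fold change of TKO was -0.06 (-0.80 to 0.67, adjusted p = 0.965).

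Fosb (ENSMUSG00000003545.3, chromosome 7, 19302696 to 19310051, minus strand), a FOS paralog that also pairs with JUN proteins, was the most abundant of the 10 in every library. It was at 4064, 3712 and 6549 CPM in WT, 5916, 2605 and 4087 CPM in δKO and 3285, 3342 and 6441 CPM in TKO, in the same order of libraries. By count, it ranked 5 to 17 among all genes of a library. The genotype means were 4775 ± 1546, 4203 ± 1659 and 4356 ± 1806 CPM for WT, δKO and TKO, and each lay within the range of the libraries of the other genotypes. TKO differed from WT by -0.13 on the log2 scale (-0.92 to 0.66) and from δKO by 0.05 (-0.74 to 0.84). Per kilobase, the level of Fosb was 1.39 to 2.44 times that of Fos, above 1 in all 9 libraries.

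Jun (ENSMUSG00000052684.4, chromosome 4, 95049034 to 95052222, minus strand), the main activating partner of FOS proteins, was at 1838, 1803 and 2462 CPM in WT, 2341, 1940 and 3171 CPM in δKO and 1206, 2511 and 2296 CPM in TKO. The TKO libraries held both a value below all WT libraries and a value above them. The log2 fold change of TKO was -0.02 (-0.67 to 0.63) against WT and -0.31 (-0.96 to 0.34) against δKO, and that of δKO against WT was 0.29 (-0.36 to 0.94), the narrowest intervals of the 10 genes. The exons of Jun overlap the antisense gene Junos by 232 bases, and the amplification kit does not mark strand, so reads there cannot be told apart. Junos had 77 to 829 counts per library.

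Junb (ENSMUSG00000052837.5, chromosome 8, 84974484 to 84978718, minus strand), a JUN paralog known to restrain proliferation of HSCs and myeloid cells, was at 136, 101 and 210 CPM in WT, 163, 109 and 190 CPM in δKO and 108, 186 and 181 CPM in TKO. The means of 149 ± 55.8, 154 ± 41.1 and 158 ± 43.4 CPM were the most alike of the JUN family. TKO differed from WT by 0.08 on the log2 scale (-0.65 to 0.81). Jun was 8.05 to 12.9 times as high as Junb per kilobase. Exons of Junb share 173 bases with Prdx2 on the opposite strand, which had 699 to 3154 counts per library.

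Jund (ENSMUSG00000071076.5, chromosome 8, 70698949 to 70700616, plus strand), the JUN family member that most cells express without a stimulus, departed from the others in 1 library. It was at 97.8, 110 and 152 CPM in WT and at 87.3, 63.0 and 164 CPM in TKO. In δKO it was at 105 CPM in replicate 2 and 122 CPM in the unnumbered library but at 518 CPM in replicate 1, above the other 8 libraries. The ratio of Jund to Junb in CPM was 3.17 there and 0.340 to 1.09 elsewhere. The δKO mean was 248 ± 233 CPM, beside 120 ± 28.5 in WT and 105 ± 52.5 in TKO. With all libraries, TKO was lower than δKO by a log2 fold change of -1.25 (SE 0.564, -2.48 to -0.01), which had an unadjusted p of 0.0479 and an adjusted p of 0.487 in edgeR's test, and δKO against WT was 1.05 (-0.18 to 2.28, adjusted p = 0.705). Without δKO replicate 1, the log2 fold changes were -0.12 and -0.08. The Jund difference therefore rested on that library. Jund shares 877 bases with the antisense gene Gm11175, which had 0 counts in every library, and without strand the reads of both cannot be told apart.

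Egr1 (ENSMUSG00000038418.7, chromosome 18, 34859823 to 34864984, plus strand), an early growth response factor known to promote HSC quiescence and retention in the niche, was at 2018, 1334 and 2456 CPM in WT and at 2209, 1034 and 2024 CPM in δKO. In TKO it was at 850, 1460 and 2021 CPM. The lowest of the 9 values was in TKO, but the highest TKO library was level with WT replicate 1 and the unnumbered δKO library. The means were 1936 ± 565, 1755 ± 632 and 1444 ± 586 CPM in WT, δKO and TKO. TKO against WT gave the lowest log2 fold change of the 10 genes in that comparison, -0.42 (SE 0.367, -1.23 to 0.38), and TKO against δKO gave -0.28 (-1.08 to 0.52, adjusted p = 0.826).

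Nr4a1 (ENSMUSG00000023034.6, chromosome 15, 101254269 to 101274795, plus strand), an orphan nuclear receptor that restrains myeloid expansion, had the largest SD of log2 CPM within genotypes of the 10. It was at 353, 155 and 751 CPM in WT, 511, 110 and 431 CPM in δKO and 210, 281 and 546 CPM in TKO. The highest of the 9 values was 6.85 times the lowest, and the range of each genotype held the means of the others. The means were 420 ± 303, 350 ± 212 and 345 ± 177 CPM in WT, δKO and TKO. Its intervals were the widest of the set, with a log2 fold change of -0.28 (-1.62 to 1.05) for TKO against WT and -0.02 (-1.35 to 1.31) for TKO against δKO, so the intervals held a change of 2-fold in either direction.

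Atf3 (ENSMUSG00000026628.13, chromosome 1, 191170296 to 191218039, minus strand), a stress-induced CREB family repressor that pairs with JUN proteins, was the least abundant of the 10. It was at 58.8, 50.8 and 115 CPM in WT, 179, 36.5 and 62.8 CPM in δKO and 71.8, 48.2 and 88.9 CPM in TKO. As for Jund, δKO replicate 1 was the highest of all 9 libraries, but the lowest was also a δKO library. TKO against WT was -0.10 on the log2 scale (-1.25 to 1.05) and TKO against δKO -0.41 (-1.57 to 0.74).

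Ier2 (ENSMUSG00000053560.4, chromosome 8, 84661331 to 84662852, minus strand), another early response gene, was at 94.5, 68.7 and 156 CPM in WT, 114, 72.0 and 112 CPM in δKO and 62.5, 73.9 and 115 CPM in TKO. WT replicate 3 stood above the other 8 libraries and the remaining values were interleaved. Its log2 fold change was -0.35 (-1.12 to 0.43) for TKO against WT and -0.25 (-1.02 to 0.53) for TKO against δKO.

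Dusp1 (ENSMUSG00000024190.6, chromosome 17, 26505590 to 26562128, minus strand), a phosphatase that switches off MAPK after its own induction by it, was at 1464, 962 and 1577 CPM in WT. It was at 1345, 799 and 1711 CPM in δKO and 849, 1171 and 1224 CPM in TKO. The TKO values lay within the range of the δKO values. The log2 fold change was -0.30 (-0.96 to 0.35) for TKO against WT and -0.25 (-0.91 to 0.41) for TKO against δKO. Its exons share 11 bases with Ergic1 on the opposite strand.

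None of the 10 genes was called between genotypes at an adjusted p under 0.05 by edgeR, where 0.00549% of all 18205 genes were called for TKO against WT, 0% for TKO against δKO and 0.00549% for δKO against WT. DESeq2 on all 9 libraries also called 0 of the 10 genes in each comparison, where it called 0.657%, 3.01% and 1.05% of the genes it tested, and the smallest adjusted p of the 10 was 1, 0.322 and 0.519. At an unadjusted p under 0.05, edgeR found 0, 1 and 0 of the 10 genes in these comparisons, Jund being the gene, beside 4.19%, 10.2% and 7.01% of all genes, and DESeq2 found 0 in each. The ranges of the groups were separate for 0 of 10 genes in each comparison, beside 14.4%, 11.7% and 11.5% of all genes. The 95% intervals of these fold changes were 1.30 to 2.67 log2 units wide from end to end.

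The fold changes of the 10 genes in TKO were mostly below 0, and none passed the adjusted threshold. For TKO against WT 9 of 10 were negative with a median of -0.24, beside 0.02 over all genes tested. TKO against δKO had 8 negative with a median of -0.25, beside -0.06 over all genes, and δKO against WT had 6 negative with a median of -0.08, beside 0.05. These comparisons share libraries with each other and the genes moved together between libraries, so the signs are not separate observations. Single libraries decided these medians: that for TKO against WT was 0.08 without WT replicate 3, -0.11 without TKO replicate 1, -0.41 without WT replicate 2 and -0.52 without TKO replicate 3. For TKO against δKO it ranged from -0.47 without TKO replicate 3 to -0.03 without TKO replicate 1, and it was -0.076 with upper-quartile scaling and 0.095 with genes detected per library as covariate. For δKO against WT the median ranged from -0.29 without WT replicate 2 to 0.33 without WT replicate 3.

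**Figure D2:**
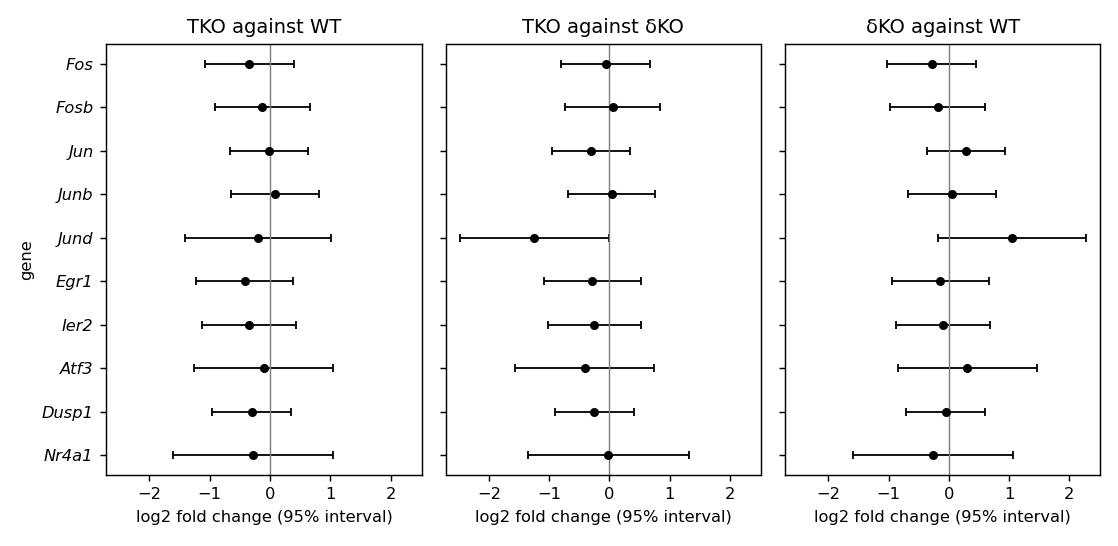
Log2 fold change of each gene (points) with its 95% interval (bars) from edgeR's fit to 9 libraries, for the 3 comparisons between genotypes. The intervals include 0 in 29 of 30 cases, and the exception is Jund for TKO against δKO, at -2.48 to -0.01.

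Whereas the genotypes overlapped, the libraries within a genotype were ordered alike by most of the genes. WT replicate 3 was the highest WT library for 10 of 10 genes and WT replicate 2 the lowest for 9, Jund being lowest in replicate 1. In δKO, replicate 2 was the lowest library for 10 of 10 genes, replicate 1 was the highest for 6 (Fosb, Jund, Egr1, Ier2, Atf3 and Nr4a1) and the unnumbered library for 4 (Fos, Jun, Junb and Dusp1). In TKO, replicate 1 was the lowest for 8 and replicate 3 the highest for 8 genes, with Jun and Junb highest and Jund and Atf3 lowest in replicate 2. Every genotype thus held both a high and a low library.

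Averaged over the 10 genes, log2 CPM relative to the 9-library mean of each gene was 0.01, -0.41 and 0.59 in WT, 0.58, -0.63 and 0.26 in δKO and -0.54, -0.20 and 0.34 in TKO. Within each genotype, the step from the lowest to the highest library in these values was larger than the difference between the means of any of the genotypes. Of the variance of log2 CPM, a median of 10.8% over the 10 genes lay between genotypes, from 0.733% for Atf3 to 24.9% for Jund, beside a median of 23.8% over all genes tested. Spread between libraries alone also gives such a share, so these values do not measure an effect of genotype.

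**Figure D3:**
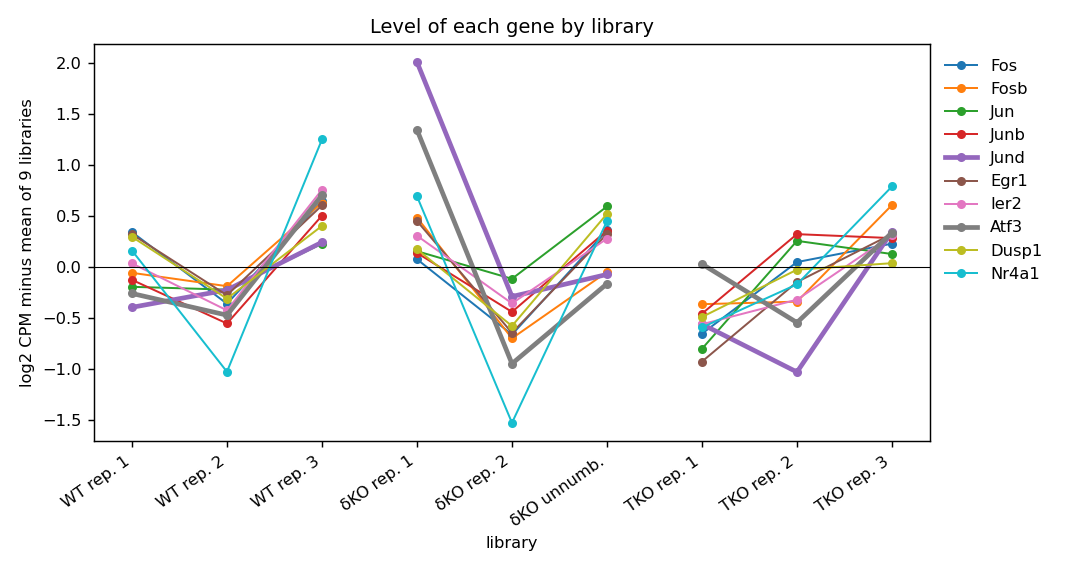
Log2 CPM of each gene minus its mean over 9 libraries, with lines joining the libraries of a genotype only to guide the eye, and Jund and Atf3 drawn thicker. Most lines dip in WT replicate 2, δKO replicate 2 and TKO replicate 1 (mean over the genes -0.41, -0.63 and -0.54), and Jund and Atf3 lie above the rest in δKO replicate 1.

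Over the 9 libraries, the 45 pairs of genes had a median Pearson correlation of log2 CPM of 0.74, from 0.19 for Jun with Atf3 to 0.95 for Fos with Dusp1. Among the 3797 genes whose mean reached 50 CPM, the median over all 7206706 pairs was 0.08. Around the genotype means the median over the 45 pairs was 0.81, and by rank (Spearman) it was 0.75. The points of each correlation are the same 9 libraries, with their depth and scaling in common, so the values are descriptions only. By Pearson correlation Jund followed the others least, with a median of 0.49 over its 9 pairs, and then Atf3 with 0.60 and Jun with 0.66. By rank the order differed, with Spearman medians of 0.583 for Jun, 0.65 for Atf3 and 0.667 for Jund. The 36 pairs without Jund had a median Pearson correlation of 0.80.

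The spread between libraries of a genotype was above the median of genes of like abundance for most of the 10. The SD of log2 CPM within genotypes was 0.42 for Jun, 0.43 for Dusp1, 0.46 for Junb, 0.48 for Ier2, 0.50 for Fos, 0.53 for Fosb and 0.57 for Egr1. It reached 0.81 for Atf3, 0.86 for Jund and 1.05 for Nr4a1. The median over the 10 was 0.518. That median was 0.369 over the 3797 genes with at least 50 CPM and 0.890 over all 18205, most of which lay below that level. When genes were grouped in bins of 1 log2 CPM, 8 of the 10 genes fell in bins with at least 20 genes, and all 8 were above the median SD of their bin, at percentiles from 71.5 for Ier2 to 99.1 for Nr4a1. Fosb was itself the median of its bin of 5 genes, and Jun was at percentile 70 of 10 genes.

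**Figure D4:**
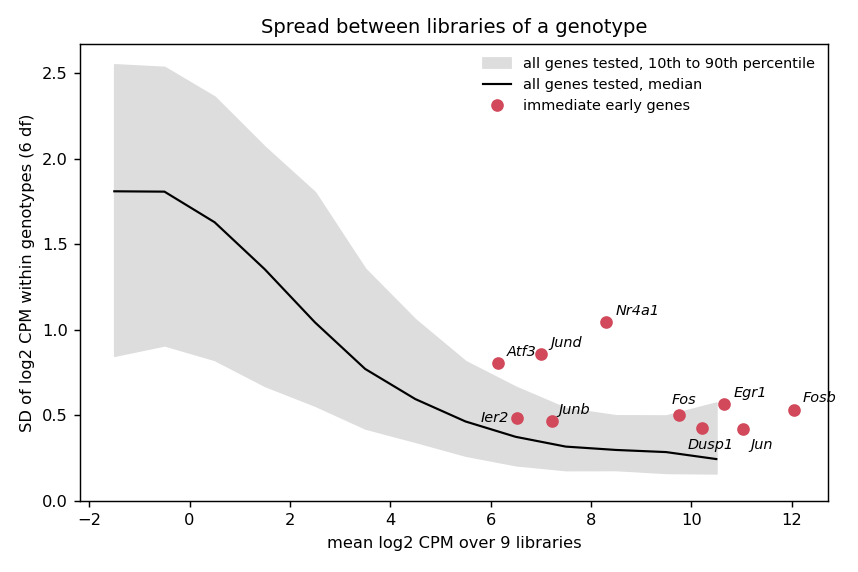
SD of log2 CPM between libraries of a genotype against mean log2 CPM, with a line and shading for the median and the 10th to 90th percentile of all genes tested in bins of 1 log2 CPM (bins of at least 20 genes). Atf3, Jund and Nr4a1, with SDs of 0.81, 0.86 and 1.05, lie above the shading.

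Other genes followed the same order of libraries. Among 10765 further genes whose mean reached 5 CPM, those most like the mean of the 10 genes over 9 libraries were Plaur (Pearson r = 0.914, 7.59 to 45.3 CPM), the urokinase receptor, Smad7 (0.914, 49.7 to 205 CPM), an inhibitor of TGF-β signaling, Rbm18 (0.914), Spaca6 (0.910) and Ube2b (0.905), a ubiquitin-conjugating enzyme. These were the highest of many correlations and are given without a test.

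A list of 42 other immediate early genes, of which 41 passed the filter, summed to 9566, 5684 and 10756 CPM in WT, 9999, 5346 and 10018 CPM in δKO and 6625, 7418 and 8868 CPM in TKO. As for the 10 genes, replicate 2 was the low library in WT and δKO, and replicate 1 in TKO. Zfp36, which encodes an RNA-binding protein that destabilizes inflammatory transcripts, was its most abundant member at 1804 to 4497 CPM and correlated with the mean of the 10 genes at 0.88. Klf6, a zinc-finger factor at 325 to 831 CPM, did so at 0.83, and Zfp36l2 at 0.57. By edgeR, 0 of the 41 genes rose or fell in any comparison at an adjusted p under 0.05. At an unadjusted p under 0.05, 0 were higher and 2 (Rhob and Cebpd) lower in TKO against WT, 1 (Zfp36l1) higher and 2 (Rhob and Mcl1) lower in TKO against δKO, and 0 higher and 1 (Cebpd) lower in δKO against WT, with medians of -0.24, 0.04 and -0.29, beside 4.19%, 10.2% and 7.01% of all genes at that p. WT replicate 3 decided the sign of the first and the last median, which were 0.12 and 0.09 without it, and the median for TKO against δKO ranged from -0.15 to 0.21 with 1 library left out. DESeq2 on all 9 libraries called 1 of them, Cebpd, lower in TKO than in WT (log2 fold change -3.59, adjusted p = 0.0194, 0.199 to 14.1 CPM over the libraries), beside 0.657% of all genes it tested.

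The relatives of the AP-1, EGR and NR4A genes, 18 of 19 tested, summed to far less, 772 to 1415 CPM. The most abundant were Atf4, the effector of the integrated stress response (168 to 362 CPM), Atf7 (116 to 171 CPM) and Nr4a2 (30.5 to 341 CPM), and their correlations with the mean of the 10 genes were 0.67, -0.13 and 0.77. None passed the adjusted threshold. At an unadjusted p under 0.05, 0 were higher or lower in TKO against WT, 2 higher (Nab2 and Batf2) and 2 lower (Batf and Atf4) in TKO against δKO, and 1 higher (Batf) and 1 lower (Nab2) in δKO against WT, with medians of -0.13, -0.04 and -0.01, beside shares of all genes at that p of 4.19%, 10.2% and 7.01%. With 1 library left out these medians took both signs, from -0.24 to 0.20, -0.32 to 0.045 and -0.22 to 0.16. DESeq2 on all 9 libraries called 1 of them, Batf2, higher in TKO than in δKO (log2 fold change 2.43, adjusted p = 0.0195, 0.811 to 17.7 CPM), beside 3.01% of all genes it tested.

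Of the 9 other dual-specificity phosphatases, the most abundant were Dusp2 (64.2 to 167 CPM), Dusp6 (13.4 to 129 CPM) and Dusp5 (12.8 to 53.0 CPM). Dusp6, a cytoplasmic MAPK phosphatase, was at 83.6, 72.0 and 129 CPM in WT, 13.4, 64.8 and 66.1 CPM in δKO and 77.3, 118 and 85.8 CPM in TKO. It was lowest in δKO replicate 1, the highest library for 6 of the 10 genes within δKO. The correlations with the mean of the 10 genes were -0.27 for Dusp6, 0.44 for Dusp2 and 0.63 for Dusp5. Over the list, 0 genes passed the adjusted threshold and only Dusp10, lower in δKO than in WT, had an unadjusted p under 0.05, beside 4.19%, 10.2% and 7.01% of all genes in the 3 comparisons. The medians were 0.13, 0.06 and 0.31, and with 1 library left out they took both signs, from -0.097 without WT replicate 2 to 0.30 without TKO replicate 2, -0.098 without TKO replicate 3 to 0.34 without the unnumbered δKO library, and -0.21 without the unnumbered δKO library to 0.49 without δKO replicate 2. With the replicate number as a block, the medians for TKO against δKO and δKO against WT were 0.50 and -0.48.

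The 30 genes of the MAPK cascade and the SRF, TCF and CREB factors, which act upstream of the immediate early genes, summed to 2602 to 3049 CPM in 8 libraries and 4058 CPM in δKO replicate 1. Mapk14, the p38α kinase, was at 345 to 702 CPM and Rps6ka3, a ribosomal S6 kinase, at 143 to 278 CPM, with correlations to the mean of the 10 genes of 0.37 and 0.26. None of the 30 passed the adjusted threshold, and at an unadjusted p under 0.05 there were 0 for TKO against WT, 1 higher (Sos1) and 1 lower (Mapk14) for TKO against δKO and 1 higher (Map2k1) for δKO against WT, beside 4.19%, 10.2% and 7.01% of all genes. Their medians were 0.01, -0.22 and 0.26. Without δKO replicate 1 the median for TKO against δKO was 0.090 and that for δKO against WT 0.044, and without TKO replicate 3 the former was -0.33.

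Heat shock genes, another group known to respond to stress on cells, were ordered alike in some libraries and differently in others. The 14 genes summed to 8795, 7696 and 6960 CPM in WT, 7069, 8119 and 13546 CPM in δKO and 6362, 7541 and 6827 CPM in TKO, so that WT replicate 3, the highest WT library for the 10 genes, was the lowest WT library for heat shock genes. The unnumbered δKO library was high for both, with 13021 CPM of the 10 genes, and TKO replicate 1 was the lowest TKO library for both. The correlations with the mean of the 10 genes were -0.13 for Hsp90ab1, 0.03 for Hspa8 and 0.42 for Hspa5. Again 0 of 14 passed the adjusted threshold. At an unadjusted p under 0.05, Hspa5 was lower in TKO than in WT, and 6 of 14 (Hspe1, Hspa5, Dnajb4, Dnaja1, Dnajb1 and Hsp90aa1) were lower in TKO than in δKO, with medians of -0.39 and -0.73, beside 4.19% and 10.2% of all genes in either direction at that p, while δKO against WT had 0 and a median of 0.26. The unnumbered δKO library weighed on the latter medians, which were -0.34 for TKO against δKO and -0.10 for δKO against WT without it, and the median for TKO against WT was -0.21 without WT replicate 1.

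Markers of other cells also differed between libraries. The 12 neutrophil genes, all detected in all libraries, summed to 12868, 5561 and 11271 CPM in WT, 293, 5039 and 12803 CPM in δKO and 174, 3421 and 963 CPM in TKO. Mpo was the highest of them except in WT replicate 3, where Ngp (3844 CPM) and S100a9 (1974 CPM) stood above Mpo (1693 CPM). WT replicate 1, with a similar sum, had 8958 CPM of Mpo and 164 and 131 CPM of Ngp and S100a9. The lowest library for neutrophil genes was also the lowest for the summed immediate early genes in WT (replicate 2) and in TKO (replicate 1, 7281 CPM). In δKO replicate 1 and TKO replicate 3, with 293 and 963 CPM of neutrophil genes, the summed level of the 10 genes was 14209 and 14090 CPM. It was 15786 CPM in WT replicate 3. The level in δKO replicate 1 depends on its TMM factor of 0.781. Its unscaled share of all counts, 1.11%, was like that of WT replicate 1 (1.11%) and the unnumbered δKO library (1.13%). The other lists summed to 192 to 1092 CPM for 8 monocyte and macrophage genes, 8.48 to 118 CPM for 9 erythroid genes, 146 to 548 CPM for 6 megakaryocyte genes, 4.81 to 12.6 CPM for 9 B cell genes, 3.87 to 232 CPM for 8 T and NK cell genes and 59.8 to 92.7 CPM for 8 endothelial and stromal genes. Single genes made up much of some sums. Nkg7 had 3.75 to 231 CPM of the T and NK sum, while Cd3e and Cd3g had 0 counts in all 9 libraries. Pecam1 had 45.5 to 85.3 CPM of the endothelial and stromal sum, while Cdh5 and Col3a1 stayed below 1 CPM. By the methods, lineage-positive cells were depleted with beads and the sort gated on Lin-cKit+Sca1+ donor cells, steps meant to exclude mature cells of these lineages. The part of other cells in the differences between libraries was not tested, and in such bulk libraries more cells expressing a gene and more RNA per cell cannot be told apart.

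**Figure D5:**
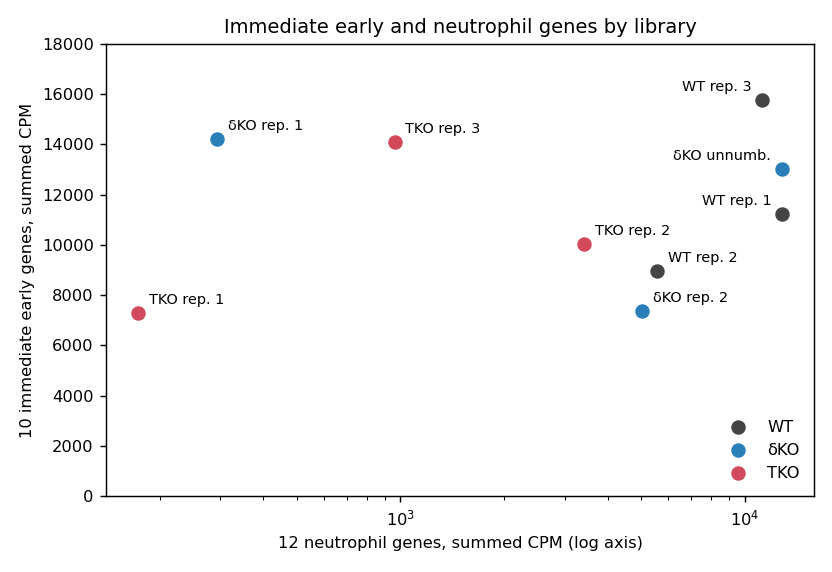
Summed CPM of the 10 immediate early genes (vertical axis, from 0) against the summed CPM of 12 neutrophil genes (horizontal log axis), with 1 labelled point per library colored by genotype. δKO replicate 1 and TKO replicate 3, at 14209 and 14090 CPM, are high on the vertical axis with 293 and 963 CPM of neutrophil genes.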

How the data were processed

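RNA of sorted LT-HSCs was amplified with the Ovation RNA-Seq System V2 and sequenced with paired ends on a HiSeq2000. The authors trimmed reads with Trim Galore 0.3.7, aligned them to mm10 with STAR 2.5.1b and deposited whole-number counts per gene, and a normalized signal (counts divided by DESeq2 size factors). The annotation, strand use and joining of technical runs are not given in the sources used here.

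Symbols were found for 47224 of 47643 identifiers. Members and lists were chosen with earlier results of these data known. In R 4.3.3, the filter filterByExpr of edgeR 4.0.16 (count minimum 10, total minimum 15) left 18205 genes. Counts of 9 libraries were scaled with TMM and fitted with edgeR's quasi-likelihood model, with 1 mean per genotype, 6 residual degrees of freedom and no block. Adjusted p-values follow Benjamini and Hochberg over all genes (threshold 0.05). The common biological coefficient of variation was 0.805. Log2 CPM used a prior count of 2. The variation between libraries, not depth, limited precision. DESeq2 1.42.0, and limma 3.58.1 on log2(signal + 1), were alternatives. Besides the 10 members, genes named are the 3 most abundant of each list (1 of them is not reported here), the 5 most alike and, chosen after their values were seen, those of the lists with an unadjusted p under 0.05 or a DESeq2 call. Promoter sequences came from RefSeq (GRCm38.p6). Positions and exon lengths came from the mm10 annotation. Figures were drawn with matplotlib.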

Additional observations from a re-analysis of the deposited data

How the results depend on the processing

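None of the 10 genes was called under any of the 20 alternatives in any comparison. The median SD within genotypes was 0.475 to 0.561 and the median correlation between the genes 0.72 to 0.80 (alternatives for the latter chosen after seeing the data). Of 30 log2 fold changes, 9 kept their sign under every alternative and 62 of 600 values had the other sign, and the cause was not tested. Some of the 600 values could hardly turn. Robust estimation returned the fold changes of the main fit, and leaving out a library of the group not compared barely moved them. Upper-quartile scaling moved the median of all genes by 0.14 for TKO against δKO and -0.15 for δKO against WT. It gave 0.11 for Fos and 0.21 for Nr4a1 in the first and -0.13 for Junb in the second. At least 10 counts in every library gave 0.030 for Fos and 0.10 for Nr4a1 (TKO against δKO) and -0.052 for Junb (δKO against WT). With genes detected per library as covariate, Junb was -0.014 for TKO against WT, Fos 0.21, Atf3 0.12, Dusp1 0.074 and Nr4a1 0.53 for TKO against δKO, and Junb -0.27 and Atf3 -0.33 for δKO against WT. The authors' normalized values in limma gave 0.12 for Nr4a1 (TKO against δKO).

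Leaving out 1 library at a time, the values that turned sign ranged, for TKO against WT, from -0.14 to 0.41 for Junb, -0.52 to 0.16 for Fosb, -0.22 to 0.24 for Jun, -0.67 to 0.061 for Jund, -0.64 to 0.032 for Ier2, -0.32 to 0.34 for Atf3 and -0.77 to 0.44 for Nr4a1. For TKO against δKO they ranged from -0.80 to 0.49 for Atf3, -0.52 to 0.35 for Nr4a1, -0.34 to 0.38 for Fosb, -0.17 to 0.24 for Junb, -0.31 to 0.17 for Fos and -0.50 to 0.011 for Dusp1. For δKO against WT they ranged from -0.17 to 0.38 for Junb, -0.32 to 0.20 for Dusp1, -0.51 to 0.11 for Fosb, -0.35 to 0.13 for Egr1, -0.34 to 0.28 for Ier2, -0.66 to 0.46 for Nr4a1, -0.077 to 1.42 for Jund and -0.59 to 0.76 for Atf3.

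Same-numbered libraries showed little common deviation (correlations -0.04 to 0.08, with 4 of 8 numbered libraries most like their own number). With so few libraries, these values cannot decide whether the numbers stand for a shared batch. With the replicate number as a block, in which the unnumbered library has a block of its own and adds nothing to the comparisons, 0 of the 10 genes were called, the medians were -0.21, -0.26 and 0.10, Fos was 0.015 and Fosb -0.24 for TKO against δKO, and Fosb was 0.089, Ier2 0.14 and Nr4a1 0.028 for δKO against WT.

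Among all genes, edgeR called 1 for TKO against WT, 0 for TKO against δKO and 1 for δKO against WT. In the same order, edgeR on the groups compared called 9, 0 and 0, DESeq2 on all libraries 125, 559 and 191 and DESeq2 on the groups compared 634, 268 and 196. Without δKO replicate 1, edgeR called 4 for TKO against WT. Of the pathway lists, DESeq2 on the groups compared called Cebpd, Gadd45a and Mrtfb for TKO against WT.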
